A study of Mus musculus with 58 samples.

Results

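The genes described here take up, store, recycle and export iron and heme in liver macrophages. The set holds 8 genes of the 25307 in the table, chosen by name for their role and matched by Ensembl identifier: Slc40a1 (ferroportin), Hmox1 (heme oxygenase 1), Fth1 and Ftl1 (the ferritin heavy and light chains), Blvrb and Blvra (biliverdin reductases B and A), Slc11a1 (NRAMP1) and Tfrc (transferrin receptor 1). RNA was measured in 58 libraries from cells isolated from the livers of 129SV mice. Of these, 20 were Kupffer cells (KC), the resident macrophages of the liver, 19 were monocyte-derived macrophages (MoMF) and 19 were monocytes (Mo). Each cell type came from 5 groups of mice. Sham6w was the control, CBDL2w was common bile duct ligation at 2 weeks, labelled as the onset of cholestatic injury, and CBDL6w was ligation at 6 weeks, labelled as advanced injury. DSS was acute colitis without ligation, and CBDL+DSS was advanced cholestatic injury with acute colitis added. Groups held 4 libraries, except the Sham6w groups of MoMF and Mo with 3, and 9 libraries joined several replicate numbers because material was pooled. The controls exist at 6 weeks only, so the 2-week group was compared with a control of another time. The labels name neither the age and sex of the mice nor the time of the colitis groups or the sorting gates.

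Macrophages of the liver and spleen clear aged red blood cells and hemoglobin. Heme oxygenase 1 opens the heme ring and releases iron, carbon monoxide and biliverdin, which biliverdin reductase A turns into bilirubin. The iron that is freed is stored inside ferritin, a shell built from heavy chains, which oxidise iron, and light chains, or leaves the cell through ferroportin, the known cellular iron exporter of mammals. Transferrin receptor 1 imports transferrin-bound iron, and NRAMP1 moves divalent metal out of the phagosome.

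Part of this control acts on the mRNA and not on its amount, which matters for reading 3′ counts. Iron regulatory proteins bind a small hairpin, the iron-responsive element, and block translation when it lies in the 5′ UTR or stabilise the mRNA when it lies in the 3′ UTR. The motif, a C, any 5 bases, CAGTG and any base, was searched on the sense strand of GENCODE M21 transcripts, on GRCm38. A single coding transcript per gene was searched, the first by number. The 5 bases before the loop had to pair with the 5 bases after it, with G-T pairs allowed. The motif was found in 4 of the 8 genes, whose windows are shown because they mark which mRNAs of the set carry this element. Capitals mark the motif.
Slc40a1: ttccaacttCAGCTACAGTGTtagctaagt
Fth1: ggtttcctgCTTCAACAGTGCttgaacgga
Ftl1: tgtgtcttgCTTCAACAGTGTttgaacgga
Tfrc: gataattatCGGAAGCAGTGCcttccataa
The Slc40a1 window lay in the 5′ UTR at chr1:45925467-45925496 on the minus strand, that of Fth1 in the 5′ UTR at chr19:9982729-9982758 on the plus strand, and that of Ftl1 in the 5′ UTR at chr7:45459781-45459810 on the minus strand. The Tfrc window shown, at chr16:32631216-32631245 on the plus strand, was the first of 4 such elements in its 3′ UTR. Of 21090 coding transcripts searched, 21 (0.1%) held such a match in the 5′ UTR and 93 (0.44%) in the 3′ UTR. A match is a description of the letters. The counts below measure mRNA, not protein or translation.

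Depth ranged from 118687 to 521954 unique reads per library, and from 8885 to 13360 genes were detected. Values are read counts scaled by the submitters to a common library size, called normalized counts. The MoMF Sham6w library that pooled replicates 1, 2 and 5 had the lowest depth, 118687 reads and 8885 genes, against 272554 and 294183 reads in the other libraries of its group. The next lowest were MoMF CBDL6w replicate 2 with 183043 reads and MoMF CBDL+DSS replicate 3 with 192438. Among KC libraries CBDL6w replicate 1 was lowest, with 228741. Results called against the MoMF Sham6w group are given with and without its pooled shallow library where a value changed sides of the threshold or moved by more than 1.5 times. No label says that replicates came from separate animals, so p-values measure the spread between these libraries, which may be technical in part. The defining markers fitted the KC and Mo labels: the summed normalized count of 8 Kupffer cell markers (Clec4f, Timd4, Vsig4, Cd5l, Marco, Folr2, Cd207 and C6) was 648.3 to 1995.1 in the KC libraries, 50.8 to 611.6 in MoMF and 20.2 to 254.0 in Mo. The summed count of 7 monocyte markers (Ly6c2, Ccr2, Plac8, Chil3, Fn1, F13a1 and Vcan) was 59.8 to 505.4 in KC, 212.1 to 1400.3 in MoMF and 1596.6 to 3247.0 in Mo. The KC and MoMF ranges of this sum overlapped. The Mo Sham6w libraries also held endothelial marker sums of 649.4 to 1080.5 and neutrophil marker sums of 70.8 to 644.7. The part of these in the Sham6w comparisons with Mo was not tested. In such bulk libraries fewer cells of a type and less RNA per cell cannot be told apart.

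**Figure D1:**
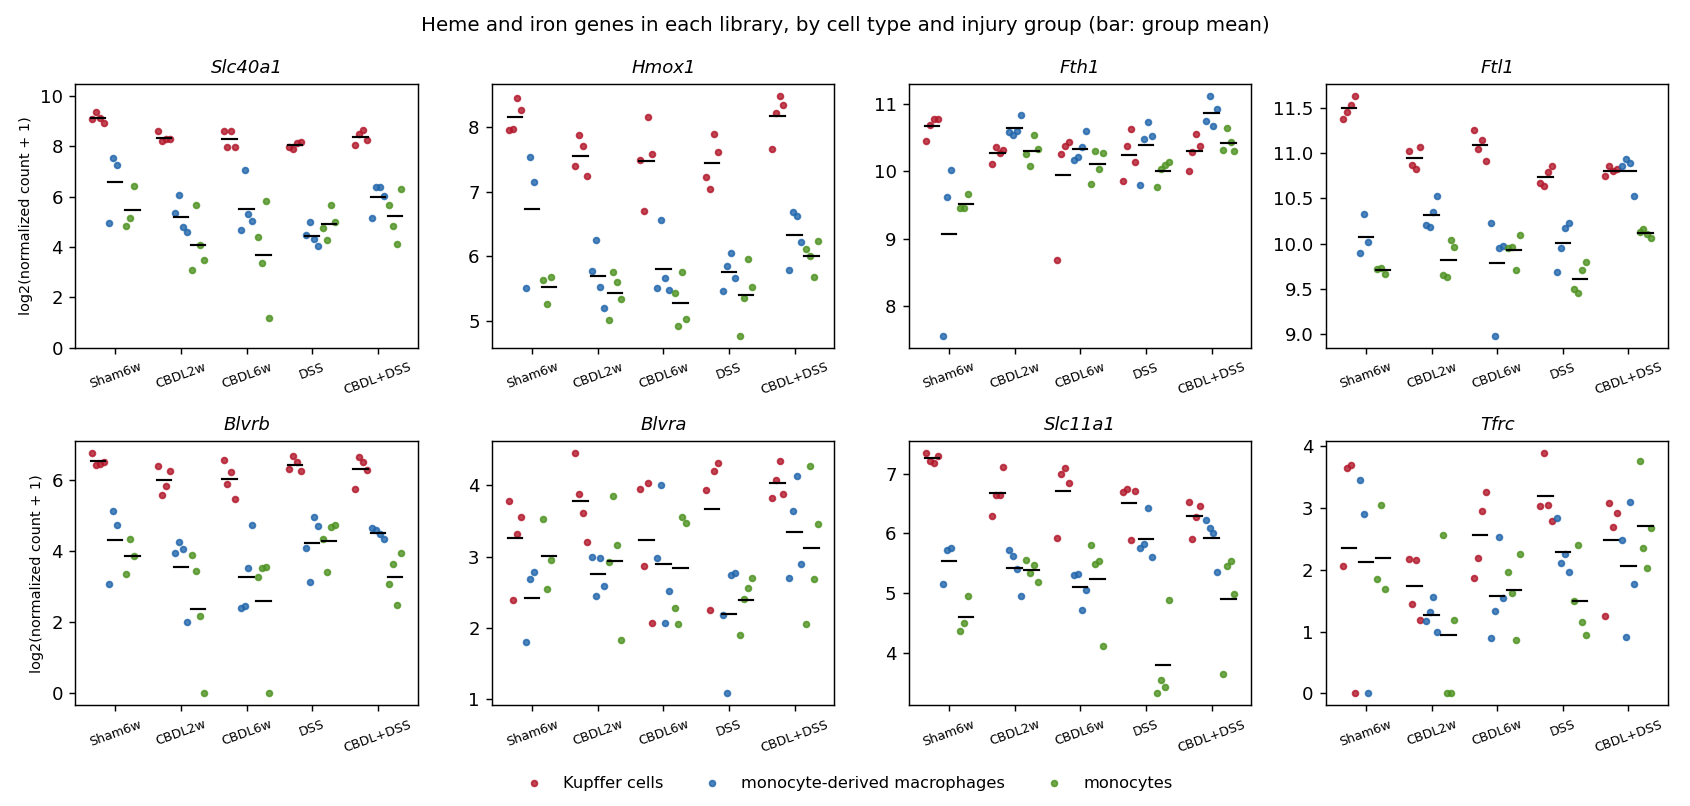
Level of each of the 8 genes in all 58 libraries, as log2(normalized count + 1) on the vertical axis, by injury group on the horizontal axis and by cell type in colour; each point is a library and each bar a group mean. The Kupffer cell points lie above the other cell types for Slc40a1 and Hmox1 in every group, while the Fth1 points of the 3 cell types mix in the injured groups.

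The genes differed widely in depth. Ftl1 (ENSMUSG00000050708, chromosome 7, 45457944 to 45459884, minus strand) and Fth1 (ENSMUSG00000024661, chromosome 19, 9980598 to 9985098, plus strand) held 91432 and 80898 reads over the 58 libraries. Slc40a1 (ENSMUSG00000025993, chromosome 1, 45908068 to 45926523, minus strand) had 1 to 1097 reads per library and Hmox1 (ENSMUSG00000005413, chromosome 8, 75093621 to 75100589, plus strand) 18 to 542. Slc11a1 (ENSMUSG00000026177, chromosome 1, 74375195 to 74386062, plus strand) had 8 to 243 reads. Blvrb (ENSMUSG00000040466, chromosome 7, 27447978 to 27466144, plus strand) had 0 to 140 reads and was listed at 0 in 2 libraries. At the low end, Blvra (ENSMUSG00000001999, chromosome 2, 127070665 to 127097084, plus strand) had 1 to 25 reads, and Tfrc (ENSMUSG00000022797, chromosome 16, 32608920 to 32632794, plus strand) had 0 to 19 and was listed at 0 in 4 libraries. Tfrc passed the filter on low values, at least 10 normalized counts in at least 3 libraries, in the Kupffer cell fit and in the fit over all 58 libraries only. Differences in Blvra and Tfrc of the size seen in the other genes were hard to detect at this depth. Reads of Ftl1 are also uncertain, because near-identical copies share its sequence: Ftl1-ps1 alone held 17239 reads.

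The first question was how the cell types differ within a group of mice. Ferroportin and heme oxygenase 1 mRNA marked Kupffer cells. Slc40a1 and Hmox1 were higher in KC than in the other cell types in 10 of 10 comparisons, Ftl1 and Blvrb in 9 of 10, and Slc11a1 in 8 of 10. Fth1 was higher in KC in 2 of 10, both of them in Sham6w mice, Blvra in 1 of 10 and Tfrc in 0 of 10. All differences are on the log2(normalized count + 1) scale and were tested with limma, with p-values adjusted by Benjamini-Hochberg over all genes tested. A call means an adjusted p under 0.05. KC against MoMF gave 6 of 8 genes higher in Sham6w (15.9% of all 7555 genes tested were called in either direction), 5 in CBDL2w (6.63%), 5 in CBDL6w (9.66%), 5 in DSS (13.5%) and 2 in CBDL+DSS (4.88%). KC against Mo gave 6 of 8 higher in Sham6w (16.0% of all genes called) and 5 of 8 in CBDL2w (14.4%), CBDL6w (15.3%), DSS (14.7%) and CBDL+DSS (14.4%). None of the 8 genes was called lower in KC in any of these comparisons.

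In the Sham6w controls, the normalized count of Slc40a1 in the 4 KC libraries was 541.9, 665.1, 552.9 and 491.3. In the 3 MoMF libraries it was 29.7 in the pooled shallow library, 183.6 and 153.2, and in the 3 Mo libraries it was 27.6, 35.0 and 85.0. The lowest KC library thus lay above the highest library of either other cell type. The log2 difference of KC from MoMF was 2.55 ± 0.61 (SE; adjusted p = 0.00204) and that from Mo 3.65 ± 0.61 (adjusted p = 6.64e-06). In the injured groups the difference from MoMF ran from 2.37 in CBDL+DSS to 3.59 in DSS, and the difference from Mo from 3.11 in DSS to 4.6 in CBDL6w. The groups did not overlap in any of the 10 comparisons. Outside Kupffer cells, the library with the highest Slc40a1 of its group was also the library with the highest sum of Kupffer cell markers in 10 of 10 groups. The part of Kupffer cells in the MoMF and Mo values was not tested. In KC the same library was highest in both in 1 of 5 groups.

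Hmox1 in the Sham6w KC libraries was 247.0, 249.8, 349.4 and 307.9 normalized counts. The MoMF libraries held 44.6, 184.7 and 141.4, and the Mo libraries 48.5, 37.4 and 50.3. Here too the KC libraries did not overlap with the others, at a log2 difference of 1.43 ± 0.33 from MoMF (adjusted p = 0.00132) and 2.64 ± 0.33 from Mo (adjusted p = 1.26e-08). In the injured groups KC exceeded MoMF by 1.68 to 1.87 and Mo by 2.05 to 2.2. Over the 10 groups of MoMF and Mo, the highest Hmox1 and the highest Kupffer marker sum fell in the same library in 8. Between MoMF and Mo, Hmox1 was called in Sham6w alone (1.21 ± 0.35, adjusted p = 0.0253), the groups overlapped, and the call was lost without MoMF Sham6w replicate 3 (adjusted p = 0.188), MoMF replicate 4+6 (0.113), Mo replicate 1+2+5 (0.0597) or Mo replicate 3+6 (0.115). Without the shallow MoMF library the difference was 1.82 (adjusted p = 0.000588).

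Blvrb had a Sham6w mean of 91.8 ± 9.95 (SD, n = 4) in KC, 22.2 ± 13.4 (n = 3) in MoMF and 14.0 ± 5.09 (n = 3) in Mo. Its log2 difference between KC and the other types lay between 1.79 and 3.63 over the 10 comparisons. In CBDL+DSS the 1.79 between KC and MoMF did not pass the threshold with limma (adjusted p = 0.0704), but it did with a pseudocount of 5 (1.63, adjusted p = 0.00307) and with edgeR (1.85, adjusted p = 0.00388). In CBDL2w the call against MoMF was lost without MoMF CBDL2w replicate 4 (adjusted p = 0.0626). Blvra, the other reductase, was near its counting floor, with group means of 9.19 to 15.5 in KC. Its single limma call, KC over MoMF in DSS (1.48 ± 0.5, adjusted p = 0.0385), rested on overlapping groups and was lost without any of 5 of the 8 libraries compared. In DSS against Mo the difference was 1.28 (adjusted p = 0.078), and edgeR called it (1.63, adjusted p = 0.0326), as did limma without KC DSS replicate 2 (1.76, adjusted p = 0.0149).

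Of the ferritin chains, Ftl1 was higher in KC throughout except in CBDL+DSS against MoMF. In Sham6w it was 2654.1, 2801.1, 2971.0 and 3180.2 in KC, against 948.5, 1285.0 and 1033.0 in MoMF and 844.9, 851.1 and 808.9 in Mo. The log2 differences were 1.42 ± 0.16 (adjusted p = 2.42e-09) and 1.79 ± 0.16 (adjusted p = 1.14e-12). In CBDL+DSS the KC mean of 1792.4 and the MoMF mean of 1796.1 differed by 0.01 ± 0.15 (adjusted p = 0.996). Fth1 followed another pattern: KC exceeded MoMF by 1.61 ± 0.3 (adjusted p = 7.93e-05) and Mo by 1.15 ± 0.3 (adjusted p = 0.00356) in Sham6w, and in the 4 injured groups the differences lay between -0.56 and 0.24, with no call.

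Slc11a1 was higher in KC than in Mo in all 5 groups, by 1.28 to 2.71, and higher than in MoMF in 3 of 5. The CBDL+DSS call against Mo ended with the replicate block (1.13, adjusted p = 0.0565). In DSS and CBDL+DSS the difference from MoMF was 0.61 (adjusted p = 0.248) and 0.37 (adjusted p = 0.664). In the DSS group MoMF exceeded Mo by 2.1 ± 0.32 (adjusted p = 1.46e-05). The 4 MoMF libraries there held 53.0, 55.4, 85.1 and 47.5 and the 4 Mo libraries 9.08, 10.7, 9.83 and 28.5 normalized counts, with no overlap. Endothelial markers (10 genes) summed to 391.4 to 478.2 in MoMF DSS and 393.1 to 909.9 in Mo DSS, and their part in this difference was not tested. The CBDL2w call of KC over MoMF (1.25) was lost without KC CBDL2w replicate 4 or MoMF CBDL2w replicate 4 (adjusted p up to 0.061).

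MoMF and Mo differed in few of the genes. Beside Hmox1 in Sham6w (1 of 8, with 6.15% of all genes called) and Slc11a1 in DSS (1 of 8, 2.32%), Ftl1 was higher in MoMF in CBDL+DSS (1 of 8, 4.29%), at 0.69 ± 0.15 (adjusted p = 0.00179). In CBDL2w limma called 0 of 8 (2.01% of all genes), with 1 at an unadjusted p under 0.05 and 1 called by edgeR. That gene was Ftl1, at 0.49 ± 0.15 (adjusted p = 0.0652), with no overlap between the groups. In CBDL6w limma called 0 of 8 (2.16%), with 1 at an unadjusted p under 0.05 and 0 by edgeR, but without Mo CBDL6w replicate 3 Slc40a1 was called (2.54, adjusted p = 0.005). Without Mo CBDL2w replicate 3 the Ftl1 difference of CBDL2w also passed (0.57, adjusted p = 0.0464). Slc11a1 in CBDL+DSS passed with a pseudocount of 5 (0.9, adjusted p = 0.0497) and without Mo CBDL+DSS replicate 2 or 4+5 or MoMF CBDL+DSS replicate 4+5 (1.19 to 1.22). Without MoMF Sham6w replicate 1+2+5, the Sham6w comparison of KC with MoMF called 3 of 8 instead of 6. The lost differences were those of Slc40a1 (1.73, adjusted p = 0.0859), Hmox1 (0.82, adjusted p = 0.111) and Blvrb (1.61, adjusted p = 0.159), while Fth1 was at 0.85 (adjusted p = 0.0237).

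The next comparisons ask what each injury did within Kupffer cells. All 4 injury groups were set against the same Sham6w libraries, so these results share their control. Ferroportin and ferritin light chain mRNA fell in all of them. Limma called 2 of 8 genes in CBDL2w (2.71% of the 6159 genes tested were called in either direction), 2 in CBDL6w (3.25%), 2 in DSS (7.89%) and 3 in CBDL+DSS (3.31%), all of them lower than in Sham6w. The median log2 difference of the 8 genes was -0.56, -0.52, -0.57 and -0.3 in that order, beside -0.03, -0.06, -0.07 and 0.02 over all genes tested.

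Slc40a1 stood at 562.8 ± 73.3 (SD, n = 4) in Sham6w KC. In CBDL2w its 4 libraries held 394.7, 292.7, 316.3 and 312.6 normalized counts, and in CBDL6w they held 389.9, 251.1, 387.7 and 253.9. In DSS they held 253.9, 236.4, 278.2 and 286.8, and in CBDL+DSS 268.3, 359.8, 402.5 and 303.8. Every injured library lay below the lowest Sham6w library, which had 491.3. The log2 difference was -0.77 ± 0.17 in CBDL2w (adjusted p = 0.0149), -0.83 ± 0.17 in CBDL6w (adjusted p = 0.00603), -1.09 ± 0.17 in DSS (adjusted p = 0.00046) and -0.76 ± 0.17 in CBDL+DSS (adjusted p = 0.0107). Without KC Sham6w replicate 2, the control with the highest Slc40a1, the adjusted p was 0.0586 in CBDL2w (-0.69) and 0.0518 in CBDL+DSS (-0.68).

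Ftl1 in KC fell from 2901.6 ± 226.4 (SD, n = 4) in Sham6w to 1976.0 ± 160.2 in CBDL2w, 2186.4 ± 222.8 in CBDL6w, 1707.2 ± 120.3 in DSS and 1792.4 ± 60.7 in CBDL+DSS. The injured libraries lay between 1588.6 and 2445.0, below all 4 controls. Its log2 difference was -0.55 ± 0.1 (adjusted p = 0.00304), -0.41 ± 0.1 (adjusted p = 0.0295), -0.76 ± 0.1 (adjusted p = 0.000102) and -0.69 ± 0.1 (adjusted p = 0.000169) in that order. The CBDL6w call was lost with libraries scaled to equal totals, with edgeR, with the replicate block, and without CBDL6w replicate 2 or 4 or Sham6w replicate 2, 3 or 4 (adjusted p up to 0.108).

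Fth1, the heavy chain, did not pass the threshold in KC. Its mean was 1640.6 ± 167.8 in Sham6w and 1089.1 to 1277.1 in the injured groups, with log2 differences of -0.37 to -0.73 and adjusted p-values of 0.133 to 0.553. The lowest value came from CBDL6w replicate 1, with 409.7 against 1227.5 to 1391.0 in the other libraries of its group.

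Hmox1 in KC was 168.2, 233.5, 208.0 and 150.9 in CBDL2w, 178.4, 103.1, 285.1 and 189.9 in CBDL6w, and 149.3, 131.3, 237.9 and 194.5 in DSS, against a control range of 247.0 to 349.4. The CBDL2w and DSS libraries all lay below the controls, and CBDL6w replicate 3 lay among them. The log2 differences of -0.6, -0.68 and -0.71 did not pass the threshold (adjusted p = 0.227, 0.15 and 0.078). Without replicate 3 the CBDL6w difference was -0.91 (adjusted p = 0.0353). In CBDL+DSS the libraries held 201.4, 295.8, 358.2 and 323.5, a difference from Sham6w of 0.01 ± 0.25 (adjusted p = 0.985).

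Slc11a1 in KC was 160.8, 147.3, 142.9 and 155.2 in Sham6w and lay below that range in all 16 injured libraries. It was 90.6, 59.0, 76.1 and 87.1 in CBDL+DSS, the group in which it passed the threshold (-0.96 ± 0.24, adjusted p = 0.0261). In CBDL2w, CBDL6w and DSS the log2 differences were -0.58, -0.54 and -0.74 (adjusted p = 0.229, 0.245 and 0.0587), and with a pseudocount of 5 the DSS value passed (-0.71, adjusted p = 0.0491). The CBDL+DSS call was lost without any of the 4 controls, or without CBDL+DSS replicate 2 or 4+5 (adjusted p up to 0.0868). Blvrb had log2 differences of -0.11 to -0.52, Blvra of -0.03 to 0.77 and Tfrc of -0.62 to 0.84, and none passed the threshold in any of the 4 groups.

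Marker sums of the Kupffer cell libraries moved along with these genes. The 8 Kupffer cell markers summed to 1765.1 to 1995.1 in Sham6w, 828.3 to 1183.8 in CBDL2w, 648.3 to 1303.1 in CBDL6w, 1259.1 to 1452.2 in DSS and 1374.7 to 1778.8 in CBDL+DSS, and none of the 8 was at 0 in any KC library. The 7 monocyte markers summed to 59.8 to 94.0 in Sham6w, 308.6 to 505.4 in CBDL2w, 161.2 to 495.6 in CBDL6w, 117.1 to 268.1 in DSS and 72.2 to 181.8 in CBDL+DSS. The sum of 7 tissue macrophage markers (Adgre1, Mertk, C1qa, C1qb, C1qc, Mrc1 and Csf1r) was 2223.3 to 2449.5 in Sham6w. Every injured library lay below that range, at 1690.5 to 1918.6 in CBDL2w and 1724.9 to 2135.8 in CBDL6w. In DSS this sum was 1364.7 to 1507.0 and in CBDL+DSS 1840.9 to 2212.9. The 9 mitochondrial transcripts summed to 11898.1 to 18284.8 in Sham6w and to 6358.4 to 13775.6 in the injured groups. Erythroid markers, of which 6 of 8 were in the table, summed to 71.3 to 293.0 in Sham6w, 11.4 to 76.7 in CBDL2w and 7.2 to 101.7 in CBDL6w, 18.8 to 171.6 in DSS and 56.7 to 128.0 in CBDL+DSS. The part of these shifts in the falls of Slc40a1, Ftl1 and Slc11a1 was not tested.

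**Figure D2:**
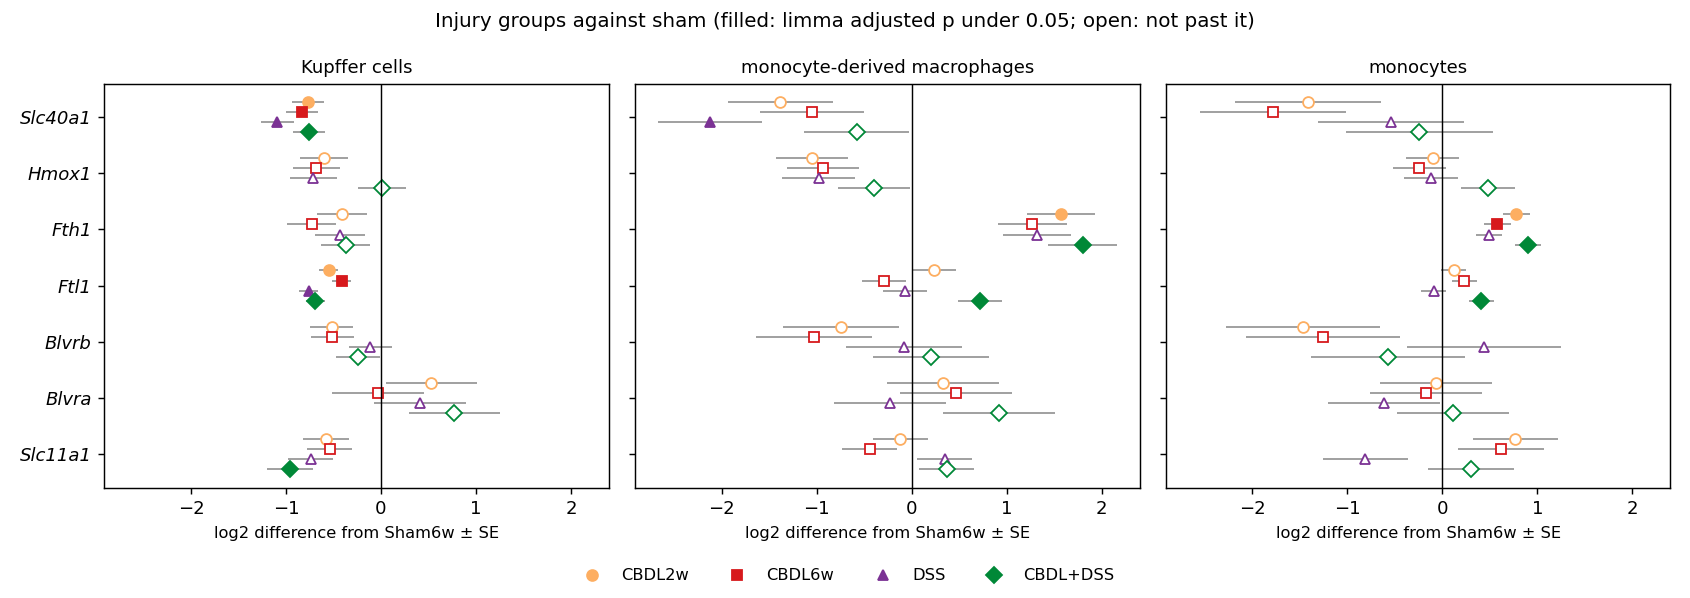
Log2 difference from Sham6w with its standard error on the horizontal axis, for 7 of the genes in each cell type and injury group; filled symbols mark a limma adjusted p under 0.05. In Kupffer cells the 4 Slc40a1 and 4 Ftl1 symbols are filled and lie left of 0, between -0.41 and -1.09, while in monocytes and MoMF the filled Fth1 symbols lie right of 0, between 0.58 and 1.8.

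Time after ligation was compared directly. In KC, limma called 0 of 8 genes between CBDL2w and CBDL6w (0.0% of all genes), with 0 at an unadjusted p under 0.05 and 0 by edgeR. Slc40a1 differed by 0.06 ± 0.17 and Ftl1 by -0.14 ± 0.1 between the 2 times. In MoMF 0 of 7 tested genes were called (0.0823% of all genes), with 1 at an unadjusted p under 0.05 and 0 by edgeR. In Mo 0 of 7 were called (0.0%), with 0 at an unadjusted p under 0.05 and 0 by edgeR.

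In Kupffer cells the difference made by colitis was not the same with ligation as without it for Slc40a1 and Hmox1. Without ligation, from Sham6w to DSS, Slc40a1 fell by 1.09 and Hmox1 had a difference of -0.71. With ligation, from CBDL6w to CBDL+DSS, Slc40a1 had a difference of 0.07 ± 0.17 and Hmox1 of 0.69 ± 0.25. Tested alone, CBDL+DSS against CBDL6w gave 0 of 8 calls by limma (1.74% of all genes) and 0 by edgeR. It gave 2 at an unadjusted p under 0.05: Hmox1 (0.69, adjusted p = 0.176) and Ftl1 (-0.28 ± 0.1, adjusted p = 0.186).

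The difference between the colitis effects was tested itself, over 4 groups of libraries that the 2 effects do not share. Limma called 2 of 8 genes (6.02% of all genes called). In both the colitis effect was more positive with ligation, which does not mean a higher level. The difference was 1.16 ± 0.24 for Slc40a1 (adjusted p = 0.00597) and 1.41 ± 0.35 for Hmox1 (adjusted p = 0.0208). Each stayed past the threshold without any single library of the 16, with a highest adjusted p of 0.0191 and 0.0499. Ftl1 was just outside it, at 0.48 ± 0.15 (adjusted p = 0.0509), and passed without KC CBDL6w replicate 1 (0.54, adjusted p = 0.0268) or KC DSS replicate 4 (0.52, adjusted p = 0.0495). Fth1 was at 0.79 ± 0.37 (adjusted p = 0.223). The median over all genes was 0.14 here and 0.03 with edgeR's scaling, under which Slc40a1 was at 1.13 (adjusted p = 0.00757) and Hmox1 at 1.3 (adjusted p = 0.0279). The Kupffer marker sum was lower in every DSS library than in any Sham6w library and higher in every CBDL+DSS library than in any CBDL6w library, and its part was not tested.

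**Figure D3:**
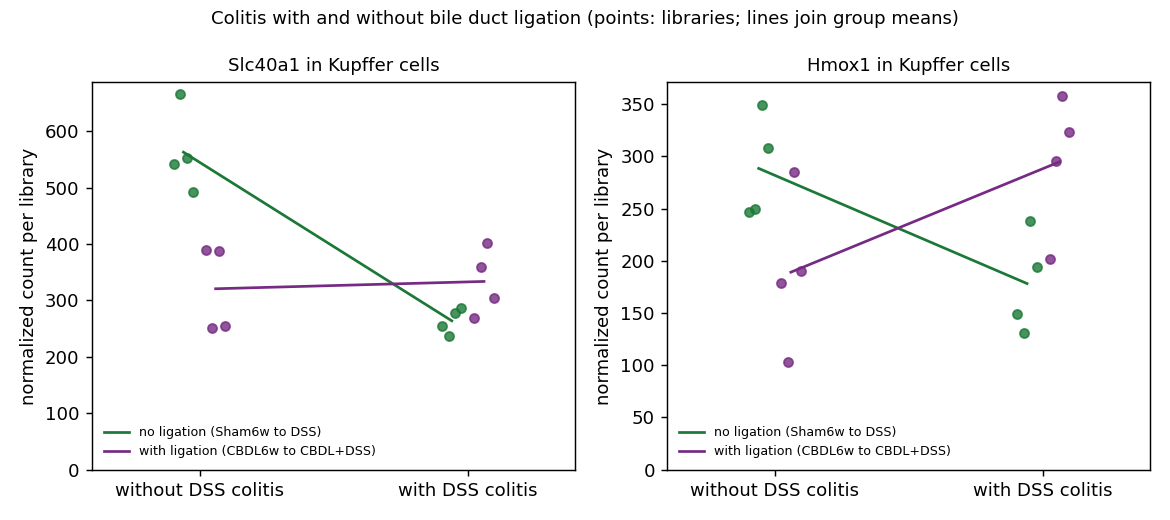
Normalized counts of Slc40a1 and Hmox1 in Kupffer cells on the vertical axis, without and with DSS colitis on the horizontal axis; points are libraries and lines join the means of the groups without ligation (green) and with ligation (purple). The green lines go down, for Slc40a1 from 562.8 to 264, while the purple line of Slc40a1 is nearly level and that of Hmox1 goes up from 189 to 295.

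The other cell types gave no call by limma in the same test. In MoMF 0 of 7 genes passed (2.09% of all genes), with 3 at an unadjusted p under 0.05 and 1 by edgeR, Slc40a1. Their differences were 2.59 ± 0.76 for Slc40a1 (adjusted p = 0.0769), 1.51 ± 0.52 for Hmox1 (adjusted p = 0.158) and 1.09 ± 0.31 for Ftl1 (adjusted p = 0.0675). Without MoMF Sham6w replicate 1+2+5 these were 3.41 (adjusted p = 0.00372), 2.12 (adjusted p = 0.00629) and 1.18 (adjusted p = 0.0435). Slc40a1 also passed without MoMF CBDL6w replicate 2 (3.1, adjusted p = 0.0172) and Ftl1 without MoMF CBDL6w replicate 1 (1.23, adjusted p = 0.0442). In Mo 0 of 7 passed (0.311% of all genes), with 1 at an unadjusted p under 0.05 and 0 by edgeR, and Slc40a1 and Hmox1 had differences of 2.09 ± 1.05 and 0.85 ± 0.38.

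In MoMF, Fth1 was called higher in CBDL2w and CBDL+DSS. Limma called 1 of 7 tested genes in CBDL2w (3.06% of the 6079 genes tested), 0 in CBDL6w (1.22%), 1 in DSS (2.07%) and 2 in CBDL+DSS (9.8%), all against the same 3 Sham6w libraries. The DSS call was Slc40a1, which was lower, and the other CBDL+DSS call was Ftl1, which was higher. In CBDL6w 2 genes had an unadjusted p under 0.05, and edgeR called 0. The Fth1 libraries held 188.2 in the pooled shallow control, 783.2 and 1041.9 in Sham6w, then 1531.2, 1489.5, 1551.3 and 1822.5 in CBDL2w, and 1725.1, 2229.8, 1635.5 and 1944.3 in CBDL+DSS. Those 8 injured libraries all lay above the 3 controls. The log2 difference was 1.57 ± 0.36 in CBDL2w (adjusted p = 0.0143) and 1.8 ± 0.36 in CBDL+DSS (adjusted p = 0.00236). In CBDL6w it was 1.27 ± 0.36 (adjusted p = 0.0802) and in DSS 1.32 ± 0.36 (adjusted p = 0.0536). Without the shallow control the differences shrank to 0.82 in CBDL2w (adjusted p = 0.0409) and 1.05 in CBDL+DSS (adjusted p = 0.00373), and to 0.52 (adjusted p = 0.347) and 0.57 (adjusted p = 0.22) in CBDL6w and DSS. The last 2 passed when a deeper control was left out instead: 1.54 (adjusted p = 0.0335) and 1.59 (0.0263) without Sham6w replicate 3, and 1.75 (0.00988) and 1.8 (0.0106) without Sham6w replicate 4+6. DSS passed as well without DSS replicate 1 (1.52, adjusted p = 0.0376), with equal totals (1.35, 0.0494) and with a pseudocount of 5 (1.31, 0.0299), and with no filter the CBDL2w call was lost (adjusted p = 0.0952). The 7 monocyte markers summed to 212.1 to 374.0 in MoMF Sham6w, 1148.8 to 1400.3 in CBDL2w, 655.7 to 1049.4 in CBDL6w, 443.6 to 557.8 in DSS and 624.6 to 719.6 in CBDL+DSS. The sums of every injured group thus lay above those of the controls, as did Fth1 in the groups called, and their part in it was not tested. Lymphoid markers, of which 6 of 8 were in the table, summed to 32.2 to 91.2 in MoMF Sham6w and 29.3 to 102.4 in DSS. They were lower in CBDL2w (4.9 to 11.9), CBDL6w (9.6 to 17.1) and CBDL+DSS (1.8 to 6.0). The part of the lymphoid markers was not tested either.

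Ftl1 rose in MoMF of the CBDL+DSS group, where it was 1854.6, 1957.7, 1900.7 and 1471.3 normalized counts. It lay above the Sham6w libraries (0.72 ± 0.23, adjusted p = 0.0445), and this call was lost without Sham6w replicate 1+2+5 or 4+6 or CBDL+DSS replicate 1, 2 or 3 (adjusted p up to 0.152). Against CBDL6w, where it was 1197.5, 505.1, 991.6 and 1005.4, the difference was 1.02 ± 0.21 (adjusted p = 0.00635), the only call among 7 genes in that comparison (4.16% of all genes). The ranges did not overlap in either comparison. Other sums were high in the same libraries: 7 tissue macrophage markers (Adgre1, Mertk, C1qa, C1qb, C1qc, Mrc1 and Csf1r) summed to 1141.5 to 1407.8 in CBDL+DSS, 666.2 to 936.3 in Sham6w and 542.9 to 759.9 in CBDL6w. The mitochondrial transcripts summed to 9048.1 to 11267.3, 5579.7 to 8876.8 and 4536.9 to 7677.6 in the same order. The part of either in the Ftl1 values was not tested. Slc11a1 passed against CBDL6w without CBDL+DSS replicate 4+5 (1.0, adjusted p = 0.0477).

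Slc40a1 and Hmox1 in MoMF were lower than Sham6w in the group means of all 4 injuries, yet the shallow control was itself low in both. Slc40a1 was 183.6 and 153.2 in the deeper controls and 29.7 in the shallow one, against 21.2, 31.0, 18.9 and 15.5 in DSS, the group in which it was called (-2.12 ± 0.55, adjusted p = 0.0464). The call was lost with equal totals (adjusted p = 0.0528), with no filter (0.0703) and without any of 6 of the 7 libraries compared, the exception being the shallow control (adjusted p up to 0.127). Without the shallow control Slc40a1 also passed in CBDL2w (-2.20, adjusted p = 0.0174), and Hmox1 passed in CBDL2w (-1.66, adjusted p = 0.00544), CBDL6w (-1.54, adjusted p = 0.0186) and DSS (-1.59, adjusted p = 0.0116). With it, the Hmox1 differences were -1.05, -0.93 and -0.98 (adjusted p = 0.139, 0.257 and 0.184).

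The sum of Kupffer cell markers was 178.3 in the shallow MoMF control and 611.6 and 557.8 in the other controls, against 50.8 to 470.4 in the injured MoMF libraries. The highest of these, CBDL6w replicate 2, held 132.7 Slc40a1 and 93.5 Hmox1, while the other 3 libraries of its group held 24.9 to 38.3 and 43.6 to 49.5. Endothelial markers summed to 71.8 to 156.4 in Sham6w and 391.4 to 478.2 in DSS. The part of these cells in the MoMF results was not tested. Slc11a1, Blvrb and Blvra passed in no MoMF injury comparison, and Tfrc was not tested there.

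Fth1 also rose in monocytes, where its 3 control values lay close together. Limma called 1 of 7 tested genes in CBDL2w (13.8% of the 6112 genes tested), 1 in CBDL6w (11.2%), 0 in DSS (1.59%) and 2 in CBDL+DSS (13.1%). These comparisons share the same 3 controls, and 1 call among 7 genes is close to the share of all genes called. In DSS 1 gene had an unadjusted p under 0.05 and edgeR called 0. Fth1 was 698.0, 702.6 and 807.8 in Sham6w. It was 1229.1, 1075.9, 1487.4 and 1284.1 in CBDL2w, 901.8, 1256.8, 1045.2 and 1230.7 in CBDL6w, 866.8, 1051.6, 1096.9 and 1123.2 in DSS, and 1269.6, 1593.9, 1382.4 and 1260.6 in CBDL+DSS. All 16 injured libraries lay above the 3 controls. The log2 difference was 0.78 ± 0.14 (adjusted p = 0.000567), 0.58 ± 0.14 (adjusted p = 0.00836), 0.49 ± 0.14 (adjusted p = 0.0699) and 0.9 ± 0.14 (adjusted p = 0.000249) in that order, and without DSS replicate 1 the DSS difference passed (0.57, adjusted p = 0.0471). The monocyte markers summed to 1596.6 to 1810.2 in Mo Sham6w, 1786.3 to 2443.0 in DSS and 2370.3 to 3247.0 in the other injured groups. The controls varied widely in 9 neutrophil markers, which summed to 70.8 to 644.7 in Mo Sham6w, with a median of 522.5. These summed to 61.6 to 140.2 in CBDL2w and 58.4 to 128.4 in CBDL6w. In DSS the range was 38.6 to 210.0 and in CBDL+DSS 132.0 to 279.3. The part of either sum in the Fth1 values was not tested.

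Ftl1 in monocytes was 808.9 to 851.1 in Sham6w and 1121.5, 1140.7, 1099.1 and 1065.4 in CBDL+DSS, a difference of 0.41 ± 0.13 (adjusted p = 0.0373). The ranges did not overlap, but the call was lost without any single one of the 7 libraries (adjusted p up to 0.0995). Slc40a1 varied widely among replicates of the injured groups, from 1.26 to 55.5 in CBDL6w, and its differences of -0.24 to -1.78 did not pass with all libraries. Without CBDL6w replicate 3, which held the 55.5, the CBDL6w difference was -2.49 (adjusted p = 0.0299). The CBDL6w libraries with 55.5 and 1.26 had Kupffer marker sums of 249.3 and 20.2. Hmox1 in monocytes lay between 26.3 and 74.1 over all 19 libraries, with no call. Against CBDL6w, CBDL+DSS gave 0 of 7 calls by limma (0.573% of all genes), with 3 at an unadjusted p under 0.05 and 0 by edgeR. Endothelial markers summed to 649.4 to 1080.5 in Mo Sham6w, 393.1 to 909.9 in Mo DSS and at most 80.8 in the other Mo groups, and their part in the Fth1 values was not tested.

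Whether an injury acted differently on 2 cell types was tested as a difference of effects over all 58 libraries. The effect in KC minus that in MoMF was negative for Fth1 in every injury: 1 of 8 genes was called in CBDL2w (0.344% of all genes), 1 in CBDL6w (0.397%), 1 in DSS (0.86%) and 2 in CBDL+DSS (1.99%). For Fth1 it was -1.98 ± 0.4 in CBDL2w (adjusted p = 0.00958), -2.0 ± 0.4 in CBDL6w (adjusted p = 0.011), -1.74 ± 0.4 in DSS (adjusted p = 0.0211) and -2.17 ± 0.4 in CBDL+DSS (adjusted p = 0.00105). These rest in part on the shallow MoMF control: without it they were -1.23 (adjusted p = 0.0858), -1.25 (0.113), -0.99 (0.166) and -1.42 (0.0164). With edgeR the CBDL6w and DSS values were not past the threshold (adjusted p = 0.0719 and 0.0772). The DSS call was also lost without KC DSS replicate 1 (0.0544), MoMF DSS replicate 3 (0.0505) or MoMF DSS replicate 5+6 (0.0544).

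For Ftl1 the CBDL+DSS effect in KC differed from that in MoMF by -1.42 ± 0.22 (adjusted p = 0.000101) and from that in Mo by -1.1 ± 0.22 (adjusted p = 0.00314), and the calls held without any single library. The KC minus MoMF difference of Ftl1 also passed in CBDL2w (-0.92, adjusted p = 0.0326) and DSS (-0.82, 0.0409) when MoMF Sham6w replicate 3 was left out. The Ftl1 value in Mo was the only call of its comparison (1 of 8, 0.821% of all genes). KC against Mo gave 0 of 8 calls by limma in CBDL2w (1.67% of all genes), CBDL6w (1.58%) and DSS (0.238%), with 3, 3 and 2 genes at an unadjusted p under 0.05 and 0 by edgeR in each. MoMF against Mo gave 0 of 8 in CBDL2w (1.38%), CBDL6w (0.649%), DSS (0.0397%) and CBDL+DSS (2.12%), with 1, 2, 1 and 1 at an unadjusted p under 0.05 and 0 by edgeR. For Fth1 the KC effect minus the Mo effect lay between -0.91 and -1.31, with adjusted p-values of 0.0829 to 0.441. No injury effect on Slc40a1, Hmox1, Blvrb, Blvra, Slc11a1 or Tfrc was called as different between cell types, so the falls of Slc40a1 in KC were not shown to be particular to them.

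The ratio of the ferritin chains differed from library to library. Counts of 3′ reads do not grow with transcript length, but the genes need not be captured and counted equally well. The ratio of Fth1 to Ftl1 counts was thus taken within each library as a description of counts, with no test. In KC it was 0.527 to 0.592 in Sham6w, and Fth1 exceeded Ftl1 in 0 of 20 KC libraries. It exceeded Ftl1 in 14 of 19 MoMF and 15 of 19 Mo libraries. The median ratio in MoMF was 0.609 in Sham6w, 1.26 in CBDL2w, 1.44 in CBDL6w, 1.33 in DSS and 1.04 in CBDL+DSS. In Mo it was 0.826, 1.39, 1.19, 1.29 and 1.22 in the same order. The KC medians stayed between 0.57 and 0.725. The MoMF Sham6w value of 0.198 came from the shallow library and the KC CBDL6w value of 0.168 from replicate 1. Reads assigned to copies of Ftl1 raise the ratio. With the reads of Ftl1-ps1, Ftl1-ps2 and Ftl2-ps added to Ftl1, Fth1 exceeded Ftl1 in 0 of 20 KC, 11 of 19 MoMF and 12 of 19 Mo libraries, and the median ratio was 0.509 in MoMF Sham6w, 0.861 in MoMF CBDL+DSS and 1.05 to 1.2 in the other MoMF groups. In Mo it was 0.703 in Sham6w and 0.999 to 1.165 in the injured groups.

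**Figure D4:**
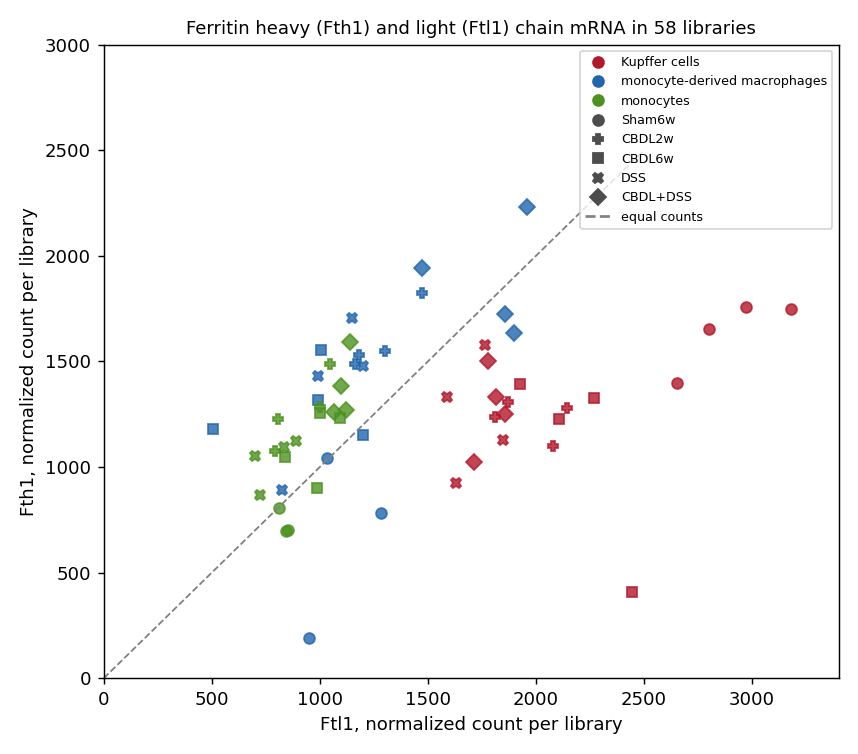
Fth1 (vertical axis) against Ftl1 (horizontal axis) as normalized counts in each of the 58 libraries, with cell type in colour, injury group as symbol and a dashed line of equal counts. The 20 Kupffer cell libraries lie below the line, with the Sham6w controls farthest to the right, and most MoMF and Mo libraries of the injured groups lie above it.

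Other genes of heme and iron handling were taken from a list of 52, of which 50 were in the table. Of the 29 tested in KC, the hemoglobin scavenger receptor Cd163 was at 536.1 ± 50.8 (SD, n = 4) in Sham6w. It fell in CBDL2w to 109.7 ± 23.5 (-2.3 ± 0.35, adjusted p = 0.000303), in CBDL6w to 75.6 ± 56.3 (-3.09 ± 0.35, adjusted p = 1.2e-05) and in CBDL+DSS to 174.1 ± 52.5 (-1.67 ± 0.35, adjusted p = 0.0078). It was the only listed gene called in those 3 comparisons, 1 of 29 beside 2.71%, 3.25% and 3.31% of all genes. In DSS 3 of 29 fell, beside 7.89% of all genes: Gclm, a subunit of the enzyme that starts glutathione synthesis (-1.16, adjusted p = 0.0138), Ncoa4, the receptor that carries ferritin to lysosomes (-0.95, adjusted p = 0.0319), and Trf, transferrin (-0.96, adjusted p = 0.0173, with overlap). Cd163 was higher in CBDL+DSS than in CBDL6w (1.42, adjusted p = 0.0423, with overlap). With each of the 8 libraries left out in turn, this last call was lost in 5 cases, the DSS call of Ncoa4 in 5 and that of Trf in 2 (highest adjusted p = 0.141, 0.121 and 0.0637).

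In the test of colitis with against without ligation in KC, 4 of 29 listed genes were called, beside 6.02% of all genes. In all of them the colitis effect was more positive with ligation, which does not mean a higher level. They were Cd163 (1.65 ± 0.5, adjusted p = 0.0499), Trf (1.38 ± 0.34, adjusted p = 0.0183), Ncoa4 (1.53 ± 0.38, adjusted p = 0.0193) and Fech, the enzyme that inserts iron into protoporphyrin to form heme (3.48 ± 0.91, adjusted p = 0.0276). With each of the 16 libraries left out in turn, the call of Cd163 was lost in 12 cases and that of Fech in 4 (highest adjusted p = 0.107 and 0.0585). In MoMF, Cd163 fell in CBDL2w (-3.34 ± 0.71, adjusted p = 0.00977) and in DSS (-2.93 ± 0.71, adjusted p = 0.0323, with overlap), and Trf rose in CBDL+DSS (1.37 ± 0.34, adjusted p = 0.0132). Without the shallow control these were -4.4 (adjusted p = 0.000315), -4.0 (0.00155) and 0.94 (0.102), so the Trf call was lost. The Cd163 call in DSS was lost when any of 5 other libraries was left out (highest adjusted p = 0.103). In Mo, Slc39a8, a metal importer, had a mean of 23.8 ± 2.66 in Sham6w and of 0.225 in CBDL2w, 0.261 in CBDL6w and 2.06 in CBDL+DSS (adjusted p = 0.0007, 0.00104 and 0.00495). Endothelial markers moved with it, at 649.4 to 1080.5 in Mo Sham6w and at most 80.8 in those 3 groups, and at 393.1 to 909.9 in DSS, where Slc39a8 was not called. Their part was not tested.

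Between cell types, Lrp1, a receptor for heme bound to hemopexin, Ncoa4 and the antioxidant enzyme Prdx1 were higher in KC in 10 of 10 comparisons. Cd163 and Trf were higher in 9 of 10, the hereditary hemochromatosis gene Hfe in 8, and the lysosomal heme transporter Slc48a1 and the transcription factor Spic in 7 each. In Sham6w Ncoa4 was 101.3 ± 12.0 in KC and 28.7 ± 10.3 in MoMF (1.84, adjusted p = 0.00209), and at 1.53 without the shallow MoMF library (adjusted p = 0.0399), which also ended the Sham6w call of Cd163 against MoMF (1.33, adjusted p = 0.212). Nfe2l2, which encodes the transcription factor NRF2, went the other way in 4 of 10 comparisons, for example in DSS against Mo (-1.32, adjusted p = 9.19e-06). Slc7a11 was also lower in KC in 4 of 10, Bach1 in 3 and Fbxl5 in 2. Pcbp1, Lcn2, Slc25a28, Slc25a37 and Slc39a8 were each lower in 1, and Slc39a8 was also higher in 1. Of the 34 listed genes tested between cell types, 5 to 8 were higher in KC than in MoMF across the groups and 9 to 11 higher than in Mo, while at most 1 and 5 were lower. Of all genes, 4.88 to 15.9% were called between KC and MoMF and 14.4 to 16.0% between KC and Mo.

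The 8 genes were also compared with all genes of at least 20 mean normalized counts by the Pearson correlation of their 15 group means over 2183 genes, as a description across cell types and injuries with no test. The groups share libraries of 3 cell types, so a gene high in KC alone scores well. The genes most like Slc40a1 were Folr2 (r = 0.982), Cd164 (0.98) and Vsig4 (0.977), and those most like Hmox1 were Fabp7 (0.987), Vsig4 (0.977) and Cd164 (0.975). Folr2 and Vsig4 are among the Kupffer cell markers used above. Ftl1 was most like Cd68 (0.965), Adgre1 (0.957) and Entpd1 (0.955), of which Cd68 and Adgre1 encode the macrophage markers macrosialin and F4/80. Slc11a1 was most like Bank1 (0.964), Acp2 (0.936) and Pilra (0.915), and Blvrb most like Dmpk (0.964), Il18bp (0.963) and Sdc3 (0.962). The best matches of Fth1 were weaker, Nipa2 (0.856), Mob1a (0.812) and Cd53 (0.805), as were those of Tfrc, Vcp (0.746), Tmed10 (0.738) and Rgl1 (0.731), and of Blvra, Fermt3 (0.88), Apoc1 (0.869) and Cd84 (0.865). Among the genes themselves, Slc40a1 followed Hmox1 (r = 0.97), Blvrb (0.94) and Ftl1 (0.86), while Fth1 had r of -0.07 to 0.39 with the other 7.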

How the data were processed

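The 3′ mRNA libraries carried unique molecular identifiers, per the labels' protocols. The authors deposited a table of 25307 genes by 58 libraries, a normalized signal in counts divided by a size factor per library. Per the submitters' processing notes, the build was GRCm38.p6 and the tools included STAR 2.7.5b, RSEM 1.3.1, DESeq2, Trimmomatic 0.39 and UMI-tools 1.0.1, with no role or order given. Whole reads were recovered for 100.0% of values within 0.01. Of the Ensembl identifiers, 25272 matched GENCODE M21 and 35 did not. The 8 genes, the lists and the rules were chosen with earlier results of these data known.

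Values were log2(normalized count + 1). Genes with at least 10 normalized counts in at least 3 libraries were tested with limma 3.58.1 (R 4.3.3; trend and robust options, two-sided, Benjamini-Hochberg over all genes tested), in 1 fit per cell type and 1 over all 58 libraries, for 48 comparisons. The Kupffer cell fit was tested on simulated data, and the other fits were not. Alternatives were a pseudocount of 5, no filter, equal library totals, edgeR 4.0.16 (quasi-likelihood, TMM) on the recovered reads, a replicate block, each library left out, and, chosen after seeing the data, Ftl1 summed with its copies. Of 84 replicate pairs none was identical. By name the text gives the 8 genes, listed genes called without overlap and with a mean of at least 20, and the 3 genes most like each. Called listed genes that overlapped, and those called lower in KC than in another cell type, are also named, chosen after their values were seen. Listed genes called in the KC test of colitis with against without ligation are named with no rule on their mean. A further monocyte marker of the list is not reported here and is in no sum.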

Additional observations from a re-analysis of the deposited data

Results flagged for a closer look

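Within groups of 4 libraries, 104 sets of values were examined, and in 5 of them a single library lay far from the rest, with a gap to its nearest neighbour wider, as a share of the range, than Dixon's 95% critical value; chance gives about 1 in 20 groups. MoMF CBDL6w replicate 2 was high in Slc40a1 (132.7 against 24.9 to 38.3, a gap of 0.876 of the range) and in Hmox1 (93.5 against 43.6 to 49.5, 0.882). Its Kupffer cell marker sum was 470.4, against 75.5 to 176.4 in the other 3, and its depth was 183043 reads. KC CBDL6w replicate 1, with 228741 reads, was low in Fth1 (409.7 against 1227.5 to 1391.0, 0.833). Slc11a1 was low in KC DSS replicate 3 (58.6 against 102.8 to 106.3, 0.927) and high in Mo DSS replicate 4 (28.5 against 9.08 to 10.7, 0.917).

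In Kupffer cells the effect of colitis differed between mice with and without ligation for Slc40a1 by 1.16 on the log2 scale (limma adjusted p = 0.00597) and for Hmox1 by 1.41 (adjusted p = 0.0208). Effects also differed between cell types. For Fth1 the effect in KC minus that in MoMF was -1.98 in CBDL2w (adjusted p = 0.00958), -2.0 in CBDL6w (0.011), -1.74 in DSS (0.0211) and -2.17 in CBDL+DSS (0.00105). Without MoMF Sham6w replicate 1+2+5, the library of lowest depth, these were -1.23 (adjusted p = 0.0858), -1.25 (0.113), -0.99 (0.166) and -1.42 (0.0164), and edgeR did not call them in CBDL6w (0.0719) or DSS (0.0772). For Ftl1 in CBDL+DSS, KC minus MoMF was -1.42 (adjusted p = 0.000101) and KC minus Mo was -1.1 (0.00314).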

How the results depend on the processing

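Of 78 calls of the 8 genes, 70 held under every alternative setting run for them (4 to 6 each), 61 without every single library and 59 under both, and no called difference changed sign. The number of the 8 genes called in KC CBDL6w against Sham6w went from 2 to 1 with equal totals, edgeR and the replicate block. With no filter it went to 0 in MoMF CBDL2w and MoMF DSS and to 1 in Mo CBDL+DSS, against Sham6w. With a pseudocount of 5 it was 2 in MoMF DSS against Sham6w and 2 between MoMF and Mo in CBDL+DSS. With edgeR it was 1 in the MoMF test of colitis with against without ligation, 1 between MoMF and Mo in CBDL2w (also 1 with equal totals and with Ftl1 copies summed) and 0 for the CBDL6w and DSS effects in KC minus MoMF.

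With each library left out in turn, the number of genes called against Sham6w ranged in KC from 1 to 2 in CBDL2w, 1 to 3 in CBDL6w and 1 to 3 in CBDL+DSS. In MoMF it ranged from 1 to 3 in CBDL2w, 0 to 1 in CBDL6w, 0 to 2 in DSS and 1 to 2 in CBDL+DSS, from 1 to 2 in CBDL+DSS against CBDL6w, and from 0 to 3 for colitis with against without ligation. In Mo it ranged from 1 to 2 in CBDL6w and 0 to 1 in DSS and was 1 in CBDL+DSS throughout. Between cell types it ranged from 3 to 6 for KC against MoMF in Sham6w and 3 to 5 in CBDL2w. For MoMF against Mo it ranged from 0 to 1 in Sham6w, CBDL2w and CBDL6w and from 1 to 2 in CBDL+DSS. For effects in KC minus MoMF it ranged from 0 to 2 in CBDL2w and DSS and 0 to 1 in CBDL6w, and for MoMF minus Mo in CBDL+DSS from 0 to 1. The cause of these shifts was not tested.

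Deviations from the group means in libraries of the same replicate number correlated weakly (-0.06 to 0.1). Between cell types of an injury group, the median correlation was 0.02 to 0.05 for the same number and -0.02 to 0 for different numbers. Correlations this weak cannot decide whether the numbers pair the libraries. The block was run where groups shared at least 2 numbers, in 20 of 48 comparisons, which hold 46 of the 78 calls. Beside the KC CBDL6w count, the replicate block ended the calls of Blvra in DSS, KC against MoMF (adjusted p = 0.0826), and of Slc11a1 in CBDL+DSS, KC against Mo (0.0565). With equal totals the median over all genes of the CBDL2w effect in KC minus Mo moved from 0.09 to 0.21, where none of the 8 genes was called. The count of all genes called was more than 1.5 times off the reported count in 46 of 212 comparisons of settings. Depth limits Blvra and Tfrc most.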
